A study of Mus musculus with 6 samples.

Results

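The mouse mitochondrial genome encodes 7 subunits of respiratory complex I, and the 7 genes mt-Nd1, mt-Nd2, mt-Nd3, mt-Nd4, mt-Nd4l, mt-Nd5 and mt-Nd6 are described here in the proximal end of the incisor. They were chosen by name out of the 19060 genes of the deposited count table, and they were selected knowing that their counts differed between mutant and control in these data. Their differences between the genotypes are therefore given as a description, without p-values. Where the fit over all genes counts some of them as called, the count is set beside the share of all genes and is no evidence about the 7. All 7 passed the filter on low counts that 15826 genes passed.

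RNA came from incisors of 3 control mice and 3 mutant mice (Gli1-Cre;Fgfr1fl/fl). The labels enter the controls as Fgfr1fl/fl in some fields and as wild type in others. By the Fgfr1fl/fl entry, all mice carried floxed Fgfr1 alleles. All were 1 month old and were sampled 1 week after tamoxifen (TMX), which activates the Cre of the mutants. The Gli1 driver limits deletion to Gli1+ cells, mainly mesenchymal stem cells and their progeny, while the RNA was taken from the whole proximal tissue, so epithelium, vessels, nerve and blood are included. In such bulk samples, a change in the number of cells of a type and a change of RNA per cell cannot be told apart. The genotypes were compared to find out which genes respond to the loss of this FGF receptor.

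The control libraries held between 31060222 and 32712448 counts and the mutant libraries between 5276557 and 11819576 counts, so every mutant library was shallower. The share of genes with 0 counts ran from 2.2 to 2.4% in control and from 14.5 to 27.3% in mutant libraries. Levels are given as CPM, counts brought to a common library size with upper-quartile scaling, and changes as log2 of mutant over control from edgeR with its approximate standard error (SE). Fgfr1, the targeted receptor, measured 529, 924 and 434 CPM in control and 148, 318 and 262 CPM in mutant samples. The groups did not overlap (log2 change -1.37, SE 0.40, edgeR adjusted p = 0.0881). All 10 dental mesenchyme markers were detected in the control samples and 9 in every mutant sample, with a summed level of 620 to 823 CPM in control and 671 to 821 CPM in mutant samples.

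Complex I, or NADH dehydrogenase, takes electrons from NADH, passes them to ubiquinone and pumps protons across the inner mitochondrial membrane. Its mitochondrially encoded subunits all lie in the membrane arm and form its proton path, whereas the NADH-oxidising peripheral arm is made from nuclear genes. The mitochondrial genome is transcribed as long precursors from both strands, and the single mRNAs are released by cutting at the tRNAs that lie between most of them.

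On the mitochondrial chromosome of GRCm38, in the GENCODE M21 annotation, mt-Nd1 spans bases 2751 to 3707 and mt-Nd2 bases 3914 to 4951. mt-Nd3 spans 9459 to 9806, mt-Nd4l 9877 to 10173, mt-Nd4 10167 to 11544 and mt-Nd5 11742 to 13565. These 6 genes are annotated on the plus strand. mt-Nd6, from 13552 to 14070, is the only one of the 7 on the minus strand. Each gene is 1 exon, and their lengths run from 297 bases in mt-Nd4l to 1824 bases in mt-Nd5.

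The members overlap in 2 places. The last bases of mt-Nd4l are also the first bases of mt-Nd4, on the same strand and in the same precursor. No tRNA lies between these genes, and a read across the junction can be counted for either gene. The 7 shared bases are in capitals, with the end of mt-Nd4l (chrM:10124-10173) above the start of mt-Nd4 (chrM:10167-10216).
mt-Nd4l: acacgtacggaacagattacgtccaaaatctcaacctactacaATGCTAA
mt-Nd4: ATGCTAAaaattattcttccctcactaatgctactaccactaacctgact
The ends of mt-Nd5 and mt-Nd6 meet on opposite strands. Their 14 shared bases are in capitals, each written 5′ to 3′ on its own strand, for mt-Nd5 (chrM:13516-13565, plus strand) and mt-Nd6 (chrM:13552-13601, minus strand).
mt-Nd5: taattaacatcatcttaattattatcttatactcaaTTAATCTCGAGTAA
mt-Nd6: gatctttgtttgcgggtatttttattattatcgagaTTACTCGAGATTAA
Whether the counting used strand is not given in the sources used here, so transcripts of mt-Nd6 and antisense transcripts of its region cannot be told apart in these counts. mt-Nd1 and mt-Nd2 each share 2 bases with a tRNA gene (mt-Ti and mt-Tw).

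Nuclear copies of mitochondrial DNA bear on which reads these genes received. On chromosome 1, the annotated pseudogenes Gm28438 (24612775 to 24613119), Gm10222 (24612407 to 24612700) and Gm28439 (24611535 to 24612410) follow each other on the minus strand in the order of mt-Nd3, mt-Nd4l and mt-Nd4. Gm10222 is identical to mt-Nd4l over 294 bases, Gm28439 is identical to mt-Nd4 over 876 bases, and Gm28438 matches mt-Nd3 over 345 bases with 99.71% identity. The only substitution between Gm28438 and mt-Nd3 is T3C, counted from 1 at the first base of mt-Nd3, with the base of mt-Nd3 first. It is the capital in the starts of mt-Nd3 (chrM:9459-9508, plus strand) and Gm28438 (chr1:24613070-24613119, minus strand), which show how little separates the 2 genes.
mt-Nd3: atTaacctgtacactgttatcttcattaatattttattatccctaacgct
Gm28438: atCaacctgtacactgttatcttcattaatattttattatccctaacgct
Of all stretches of 75 bases, the read length, 98.7% of those in mt-Nd4l, 97.8% in mt-Nd3 and 61.5% in mt-Nd4 are found unchanged in another annotated transcript. The share was 5.7% for mt-Nd2 (in Gm13339, on chromosome 2) and 1.7% for mt-Nd5. It was 0 of 883 stretches for mt-Nd1 and 0 of 445 for mt-Nd6, whose counts have no annotated competitor of this kind.

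Among the 3 large subunits that resemble antiporters and carry proton channels, mt-Nd2 measured 218, 252 and 213 CPM in control samples 1, 2 and 3, and 4288, 2034 and 3515 CPM in mutant samples 1, 2 and 3. mt-Nd4 measured 480, 632 and 494 CPM in control and 6095, 2648 and 4743 CPM in mutant samples. mt-Nd5 measured 199, 433 and 255 CPM in control and 1972, 1603 and 2511 CPM in mutant samples. For each of the 3 genes every mutant sample lay above every control sample, and mutant sample 2 was the lowest of the mutants. The mean was 14.4 times the control mean for mt-Nd2 (log2 change 3.85, SE 0.40, n = 3 and 3). It was 8.40 times for mt-Nd4 (3.07, SE 0.43) and 6.87 times for mt-Nd5 (2.78, SE 0.40). Control sample 2 was the highest control for all 3 genes.

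mt-Nd1, the subunit at the joint of the arms that helps form the ubiquinone site, measured 539, 450 and 588 CPM in control and 7189, 3580 and 5555 CPM in mutant samples. The lowest mutant sample was 6.09 times the highest control sample, and the mean 10.4 times the control mean (log2 change 3.37, SE 0.41). Unlike the large channel subunits, mt-Nd1 was lowest in control sample 2.

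The 3 small subunits, mt-Nd3, mt-Nd4l and mt-Nd6, lie between mt-Nd1 and the channel subunits. mt-Nd3 measured 232, 74.1 and 166 CPM in control and 2108, 1616 and 1333 CPM in mutant samples (log2 change 3.42, SE 0.47). mt-Nd4l measured 47.5, 76.5 and 51.8 CPM in control and 1194, 785 and 1091 CPM in mutant samples (4.13, SE 0.34). mt-Nd6 measured 72.4, 113 and 68.9 CPM in control and 1319, 650 and 1113 CPM in mutant samples (3.60, SE 0.39). The groups did not overlap for any of the 3 genes. The spread among controls was widest for mt-Nd3, where control sample 2 held the lowest value, while the same sample held the highest value of mt-Nd4l and of mt-Nd6. mt-Nd4l had the highest ratio of means of the 7 genes (17.5 times), and mt-Nd5 the lowest.

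**Figure D1:**
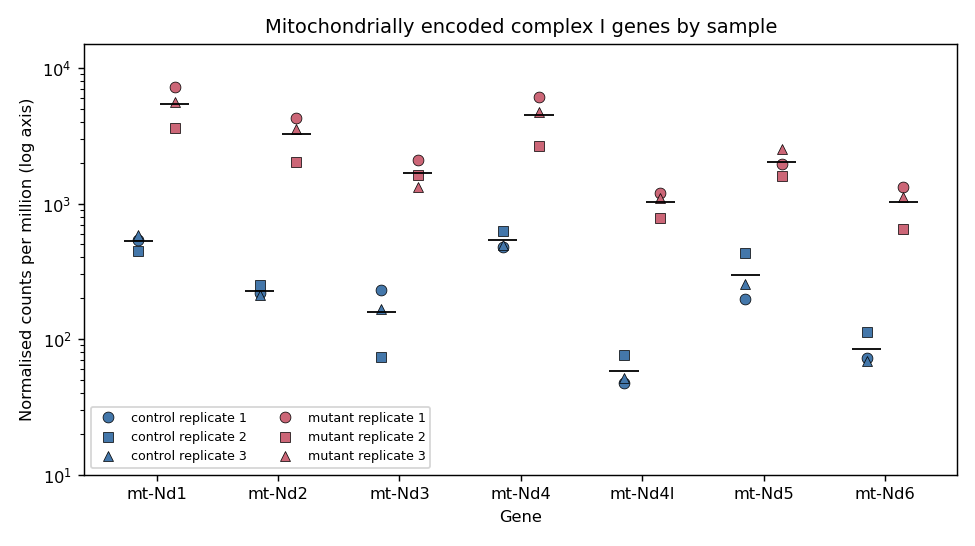
Normalised CPM of the 7 genes on a log axis, with 1 point for each of the 3 control (blue) and 3 mutant (red) samples and a line at each group mean. For every gene the lowest mutant point lies above the highest control point, from 3.70 times for mt-Nd5 to 10.3 times for mt-Nd4l.

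Over the 7 genes, the median log2 change was 3.42, beside -0.04 over all genes tested. All 7 passed an adjusted p of 0.05 in the higher direction, as 3.72% of all genes tested did, and in all 7 every mutant sample lay above every control sample, as in 14.1% of all genes. Both counts follow from how the genes were chosen. The values hold a further limit. When length and GC content of the transcripts were corrected for, by a trend fitted in each sample on 12320 nuclear protein-coding genes, the log2 changes were 1.71 for mt-Nd2, 1.40 for mt-Nd1, 1.30 for mt-Nd5, 1.22 for mt-Nd4, 1.11 for mt-Nd4l, 0.45 for mt-Nd6 and 0.16 for mt-Nd3. Their median was then 1.22, and the count called was 0 of 7 in edgeR (4 at an unadjusted p under 0.05), beside 7 in DESeq2 with no correction. Among all genes, 0.699% were called higher after the correction. Few of the genes that it was fitted on resemble the members: 6 were as short as mt-Nd5 with a GC content as low, 2 for each of mt-Nd1, mt-Nd2 and mt-Nd4, and 0 for mt-Nd3, mt-Nd4l and mt-Nd6. Without control sample 3, 3 of the 7 were called and the median was 3.46. Over all genes, 74 were called higher in that fit, beside 589 with all samples.

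**Figure D2:**
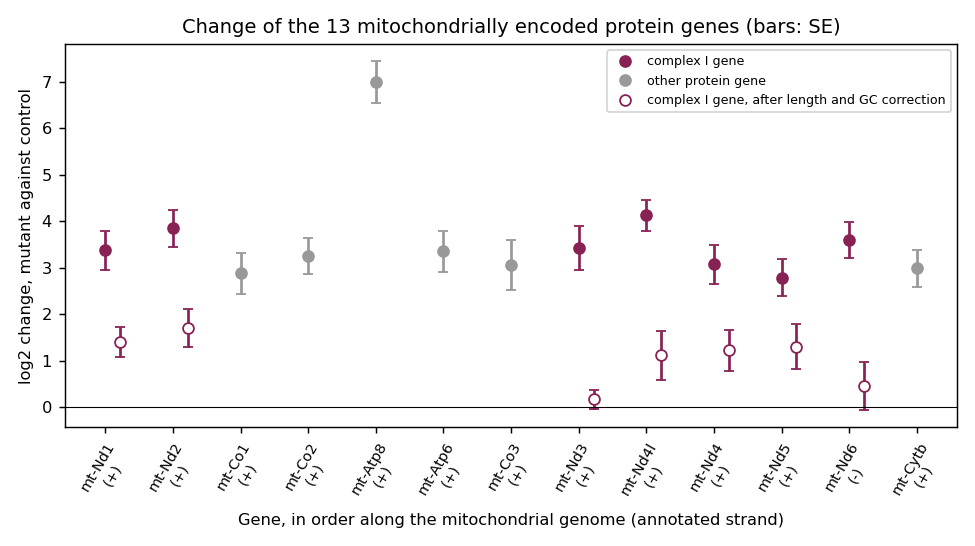
log2 change of mutant against control for the 13 mitochondrially encoded protein genes, in their order along the genome with the annotated strand in brackets. Filled points are uncorrected (complex I genes in purple, others in grey), open points are the complex I genes after the length and GC correction, and bars are SE. The filled complex I points run from 2.78 to 4.13 and the open ones from 0.16 to 1.71.

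As a share of all counts, the 7 genes took 0.190, 0.238 and 0.194% in control and 2.10, 1.28 and 1.74% in mutant samples. The mean share was 0.207% ± 0.0265 (SD, n = 3) in control and 1.70% ± 0.41 (SD, n = 3) in mutant samples, a ratio of 8.22. Mutant sample 2 had the lowest share of the mutants and still lay above each control. As a share of the 13 mitochondrially encoded protein genes, the 7 took 25.4, 33.3 and 26.5% in control and 31.6, 29.8 and 30.6% in mutant samples. The groups overlapped on this measure, with control sample 2 as the highest of all 6.

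Levels can be compared between genes only per length. In control samples, mean CPM per kilobase was highest for mt-Nd1 (549 ± 73.3, SD, n = 3), followed by mt-Nd3 (452 ± 228) and mt-Nd4 (388 ± 61.0). mt-Nd2 (219 ± 20.7), mt-Nd4l (197 ± 52.7), mt-Nd6 (164 ± 47.4) and mt-Nd5 (162 ± 67.0) were lower. Only the step from mt-Nd4 to mt-Nd2 separated neighbours without overlap of their samples. In mutant samples the order was mt-Nd1 (5686 ± 1888), mt-Nd3 (4843 ± 1127), mt-Nd4l (3446 ± 716), mt-Nd4 (3262 ± 1260), mt-Nd2 (3159 ± 1104), mt-Nd6 (1980 ± 660) and mt-Nd5 (1112 ± 250), and every pair of neighbours overlapped. mt-Nd4l had rank 5 in control and rank 3 in mutant samples, among levels that overlapped. When the length was shortened to the positions where a whole read can start, mt-Nd4l passed mt-Nd2 in control samples as well (263 against 236 CPM per kilobase). These levels leave out counts that went to the nuclear copies described above. With them added, mt-Nd3 was first in both groups, at 881 ± 436 CPM per kilobase in control and 12380 ± 2537 in mutant samples (SD, n = 3), and mt-Nd1 came next. In control samples 1 and 3 mt-Nd3 was then above every control value of mt-Nd1, but in control sample 2 it was below (408 CPM per kilobase).

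Within the 7 genes, the composition was similar in both genotypes for some and not for others. mt-Nd1 made up 30.2, 22.1 and 32.0% of the 7-gene count in control and 29.8, 27.7 and 28.0% in mutant samples, which overlapped. mt-Nd2 took 12.2, 12.4 and 11.6% in control and 17.7, 15.7 and 17.7% in mutant samples, with every mutant sample higher. mt-Nd4l took 2.66, 3.77 and 2.82% in control and 4.94, 6.08 and 5.49% in mutant samples, again with no overlap. mt-Nd4 was the only member with a lower share in every mutant sample, at 26.8, 31.1 and 26.9% in control and 25.2, 20.5 and 23.9% in mutant samples. The shares of mt-Nd3, mt-Nd5 and mt-Nd6 overlapped between the genotypes. Control sample 2 stood apart in composition, with the lowest share of mt-Nd1 and mt-Nd3 (3.65%) and the highest of mt-Nd5 (21.3%).

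**Figure D3:**
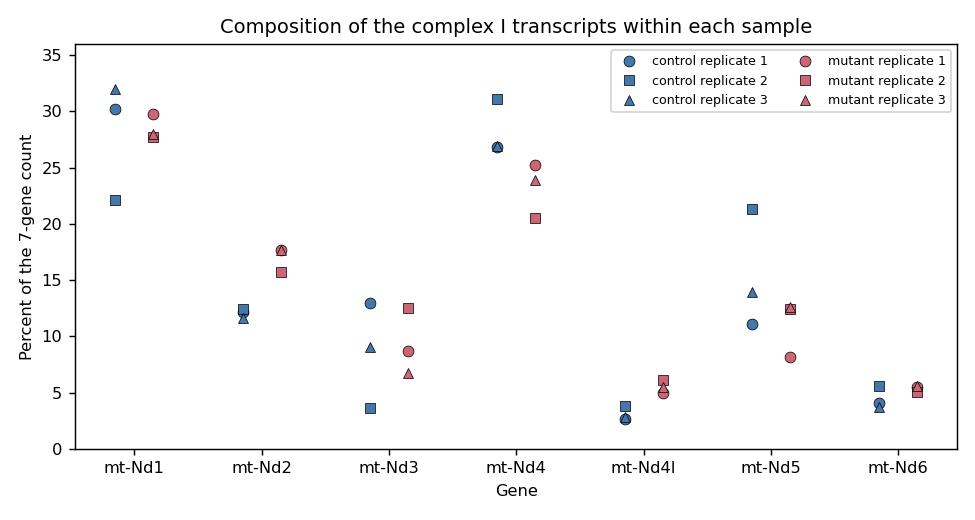
Percent of the 7-gene count taken by each gene in each of the 3 control (blue) and 3 mutant (red) samples. Mutant points lie above all control points for mt-Nd2 and mt-Nd4l and below them for mt-Nd4, and the other 4 genes overlap.

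The overlapping pairs were followed as ratios within each sample, which no scaling between samples can move. The mt-Nd4l count was 9.91, 12.1 and 10.5% of the mt-Nd4 count in control and 19.6, 29.7 and 23.0% in mutant samples. The pair shares 7 bases, so no tRNA lies between its genes at which a cut would part them into single mRNAs. This ratio still had a mean of 10.8% ± 1.14 (SD, n = 3) in control and 24.1% ± 5.12 (SD, n = 3) in mutant samples, without overlap. Whether mt-Nd4l and mt-Nd4 lay on separate mRNAs cannot be read from counts per gene and was not tested. The mt-Nd6 count, on the other strand, was 36.4, 26.2 and 27.0% of the mt-Nd5 count in control and 66.9, 40.6 and 44.3% in mutant samples. These groups did not overlap either, but the highest control and the lowest mutant sample were close. In both pairs the uncorrected ratio of the shorter to the longer gene was higher in every mutant sample. After the length and GC correction neither pair kept this direction. The log2 changes were 1.11 (SE 0.53) for mt-Nd4l and 1.22 (SE 0.44) for mt-Nd4, closer to each other than either SE. They were 0.45 (SE 0.51) for mt-Nd6 and 1.30 (SE 0.49) for mt-Nd5. For mt-Nd4l and mt-Nd6, 0 of the fitted genes were as short with a GC content as low. Taken apart, 3 were as short as mt-Nd4l and 1058 as low in GC content, and for mt-Nd6 these were 49 and 11. The correction added a separate trend for length and for GC content. Their corrected values thus rest on a combination that no fitted gene had. An exact permutation test of 3 samples against 3 cannot go below p = 0.10, and none was run.

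The nuclear copies received counts of their own. Gm28438 held 7165, 2468 and 5933 counts in control and 14645, 27913 and 22707 counts in mutant samples. It thus took 47.3, 47.8 and 50.8% of the joint count with mt-Nd3 in control and 60.3, 59.6 and 63.2% in mutant samples, although a single base separates the 2 sequences. Gm10222 took 8.0, 9.68 and 14.0% of the joint count with mt-Nd4l in control and 22.1, 15.1 and 20.6% in mutant samples. For both copies every mutant sample was higher than every control sample.

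Gm28439, the copy of mt-Nd4, had 0 counts in every control sample and 16.5, 3809 and 2164 counts in mutant samples, up to 10.9% of the joint count. Gm13339, the partial copy of mt-Nd2, had 0 counts in control and 413, 402 and 413 counts in mutant samples. Both copies were in the deposited table only through mutant samples, as it held no gene with a highest count below 10. The copies' share of all counts was 0.0169% ± 0.00711 (SD, n = 3) in control and 0.283% ± 0.0339 (SD, n = 3) in mutant samples, a ratio of 16.8, above that of the members themselves. How the authors' counting divides a read with several matches is not given in the sources used here. mt-Nd3 and mt-Nd4l had fractional counts in all 6 samples. mt-Nd5, with 1.7% of its stretches shared, had them in 5, and mt-Nd4, with 61.5%, and mt-Nd2 in 2 each. mt-Nd1 and mt-Nd6 had whole counts in all 6 (within 0.001 of a count). Neither has a copy that meets the identity rule used here, though Gm11408 matches mt-Nd6 over 519 bases at 93.64% identity. When the counts of the copies were added back, the log2 change moved from 3.42 to 3.81 for mt-Nd3, from 4.13 to 4.29 for mt-Nd4l and from 3.07 to 3.13 for mt-Nd4. The median of the 7 genes became 3.60. The mean mt-Nd4l to mt-Nd4 ratio was then 12.1% in control and 28.0% in mutant samples.

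**Figure D4:**
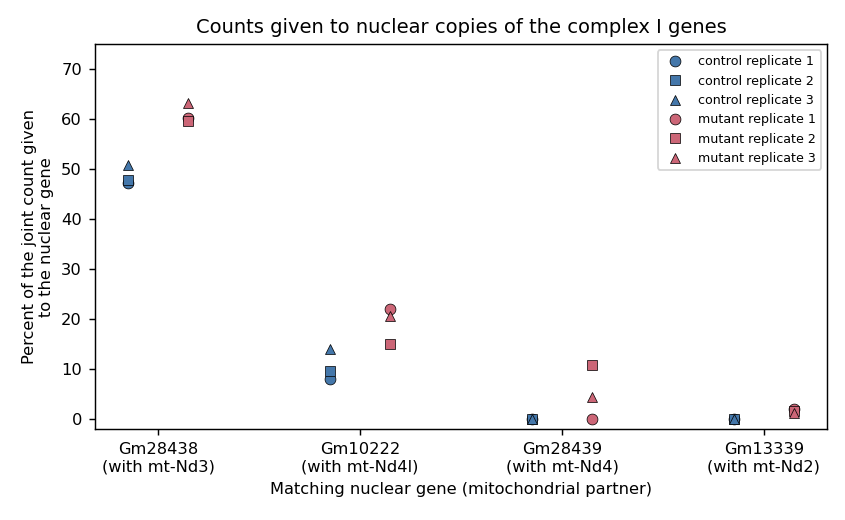
Percent of the joint count that went to each nuclear copy (with its mitochondrial partner below) in each of the 3 control (blue) and 3 mutant (red) samples. For Gm28438 and Gm10222 all mutant points lie above the controls, and for Gm28439 and Gm13339 the controls lie at 0.

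The remaining mitochondrially encoded genes gave the setting. The 6 protein genes of cytochrome c oxidase, cytochrome b and ATP synthase had a median log2 change of 3.15. In 6 of 6 every mutant sample lay above every control sample, as in 14.1% of all genes. Of these, 5 ran from 2.88 for mt-Co1 to 3.35 for mt-Atp6, within the range of the complex I genes. mt-Atp8, the shortest at 204 bases, was outside it at 7.0 (SE 0.44), with 36.3, 24.1 and 30.9 CPM in control and 4671, 2837 and 4183 CPM in mutant samples. The large ribosomal RNA, mt-Rnr2, had a log2 change of 2.15 (SE 0.44), and the small one, mt-Rnr1, of 3.07 (SE 0.41), within the range of the complex I genes. The mt-Nd1 count was 74.4, 153 and 86.5% of the mt-Rnr2 count in control and 222, 199 and 221% in mutant samples, with no overlap. Against mt-Rnr1 it was 277, 446 and 295% in control and 376, 376 and 429% in mutant samples, and the groups overlapped.

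The partners of the 7 subunits encoded in the nucleus were compared by the same edgeR test over all genes. Of the 36 nuclear complex I subunits tested, 16 were higher at an adjusted p under 0.05 and 0 were lower, beside 3.72 and 3.06% of all genes. At an unadjusted p under 0.05, 26 were higher and 0 lower, and DESeq2 called 23 higher and 0 lower, beside 7.01 and 3.16% of all genes. Their median log2 change was 1.17, below each of the 7 mitochondrial genes, and they ran from -0.42 to 2.70. Ndufs6, an accessory subunit of the NADH-oxidising module, measured 68.4, 35.3 and 64.2 CPM in control and 313, 183 and 283 CPM in mutant samples (log2 change 2.21, SE 0.34, edgeR adjusted p = 0.0190). Ndufb9, of the membrane arm, measured 168, 82.6 and 157 CPM in control and 525, 467 and 635 CPM in mutant samples (2.00, SE 0.33, edgeR adjusted p = 0.0271). Ndufb4, also of the membrane arm, measured 17.8, 6.21 and 13.8 CPM in control and 70.1, 58.2 and 117 CPM in mutant samples (2.70, SE 0.46, edgeR adjusted p = 0.0294). All 3 were lowest in control sample 2.

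All 16 calls fell among the 29 accessory subunits. The 7 nuclear core subunits hold the flavin and the iron-sulfur clusters and, with the 7 mitochondrial ones, make the conserved core of the complex. The nuclear 7 had a median log2 change of 0.02 and ran from -0.40 to 1.04. edgeR called 0 of these 7 (2 at an unadjusted p under 0.05), and DESeq2 called 1. This division was made after the values were seen and was not tested. The median transcript length was 808 bases for the 16 subunits called and 1348 bases for the 20 not called. After the length and GC correction, 1 of 36 was called higher, beside 0.699% of all genes, and the median was 0.30. The count ran from 0, without control sample 3 or without mutant sample 3, to 6, without control sample 2. It was 1 without control sample 1 or mutant sample 2, and 3 without mutant sample 1. Calls over all genes fell in these fits too, from 589 higher with all samples. They ran from 74 without control sample 3 to 471 without mutant sample 1.

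**Figure D5:**
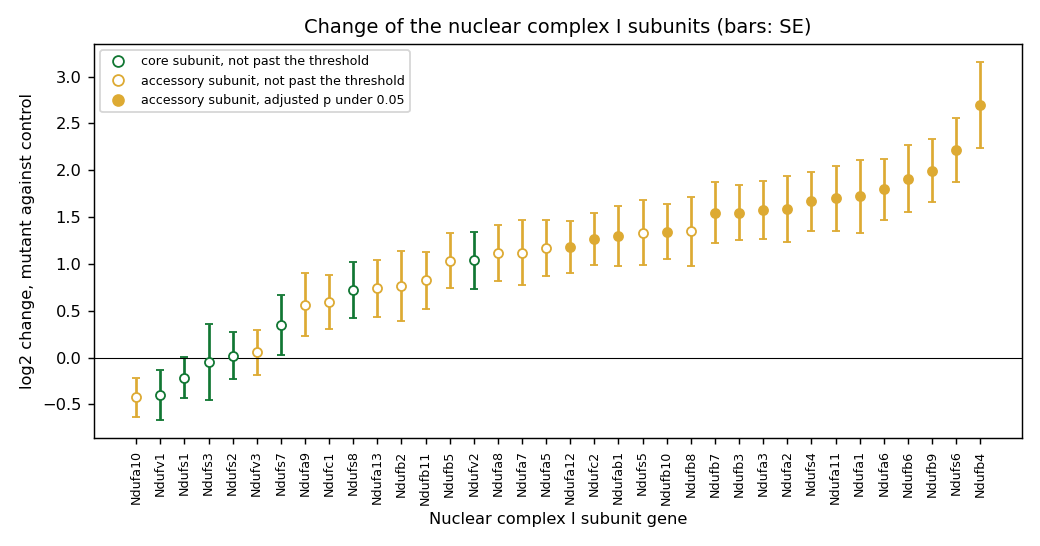
log2 change of mutant against control for the 36 nuclear complex I subunits, in order of size. Green marks the 7 core subunits and yellow the 29 accessory ones, filled points have an adjusted p under 0.05 (edgeR), and bars are SE. The 16 filled points run from 1.18 to 2.70 and are all accessory subunits.

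Assembly factors, which join the subunits into the complex and are not part of it afterwards, were counted in the same fit. Of 18 tested, 2 were higher and 0 were lower in edgeR, beside 3.72 and 3.06% of all genes (5 and 0 at an unadjusted p under 0.05, 4 and 0 in DESeq2), with a median log2 change of 0.30. Whether they differ from the subunits was not tested. Ndufaf2 measured 14.8, 7.61 and 10.1 CPM in control and 54.1, 37.1 and 42.8 CPM in mutant samples (log2 change 2.04, SE 0.37, edgeR adjusted p = 0.0345). Ndufaf4 measured 9.56, 5.47 and 10.5 CPM in control and 45.0, 32.9 and 28.6 CPM in mutant samples (2.06, SE 0.40, edgeR adjusted p = 0.0423). Neither gene's groups overlapped. With single samples left out, between 0 and 2 factors were called, and 0 without any 1 of the control samples, mutant sample 2 or mutant sample 3. Calls over all genes ran from 74 to 471 higher in these fits, beside 589 with all samples.

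The nuclear genes that copy, transcribe and process mitochondrial RNA were counted in the same way. Of 14 genes for maintenance and transcription of mitochondrial DNA, 1 was higher and 0 were lower, beside 3.72 and 3.06% of all genes (3 and 0 at an unadjusted p under 0.05, 1 and 0 in DESeq2), with a median log2 change of 0.20. The one called was Ssbp1, which coats single-stranded mitochondrial DNA. It measured 26.5, 13 and 22.5 CPM in control and 57.0, 56.0 and 56.3 CPM in mutant samples (log2 change 1.45, SE 0.32, edgeR adjusted p = 0.0464). Tfam, the factor that packages this DNA and starts its transcription, measured 29.2, 20.0 and 25.9 CPM in control and 43.7, 43.9 and 50.7 CPM in mutant samples without passing the test (log2 change 0.88, SE 0.27, edgeR adjusted p = 0.109). Polrmt, the mitochondrial RNA polymerase, overlapped between the genotypes (-0.14, SE 0.50). Tfam and Polrmt are named here for what they do, after their values were seen.

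Of 21 genes for mitochondrial RNA processing and stability, 1 was higher and 0 were lower, again beside 3.72 and 3.06% of all genes (2 and 1 at an unadjusted p under 0.05, 1 and 1 in DESeq2), with a median of 0.23. Slirp, which binds mitochondrial mRNAs with Lrpprc, measured 32.5, 16.7 and 28.1 CPM in control and 62.6, 81.5 and 77.3 CPM in mutant samples (log2 change 1.52, SE 0.31, edgeR adjusted p = 0.0445). Its partner Lrpprc, also named after its values were seen, lay the other way, at 29.2, 31.5 and 36.3 CPM in control and 16.4, 19.1 and 23.7 CPM in mutant samples, and did not pass (-0.71, SE 0.31, edgeR adjusted p = 0.251). Fastkd1, of a family of mitochondrial RNA-binding proteins, measured 4.81, 3.71 and 6.53 CPM in control and 0.655, 0.171 and 0 CPM in mutant samples, near the limit of detection of the shallower libraries, and did not pass (edgeR adjusted p = 0.121). Among the 35 genes of this list and of the maintenance and transcription list together, 2 were called higher as reported. The number was 0 after the length and GC correction and 0 or 1 without any single sample, whichever gene it was. Over all genes, 110 were called higher after the correction and 74 to 471 without a single sample, beside 589 as reported.

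Among 7 regulators of mitochondrial biogenesis, 0 were higher and 1 was lower, beside 3.72 and 3.06% of all genes. At an unadjusted p under 0.05, 0 were higher and 1 lower. DESeq2 called 0 higher and 1 lower, beside 7.01 and 3.16% of all genes. The median log2 change was 0.04. The one called lower was Ppargc1b, a coactivator of genes for oxidative metabolism, at 2.88, 4.78 and 3.55 CPM in control samples and 0 in all mutant samples (edgeR adjusted p = 0.0464). It passed the filter on low counts only through control samples, so this call is weak evidence of a difference. Its call without single samples or after the length and GC correction was not examined. Over all genes, 485 were called lower with all samples, 2 to 135 without a single sample and 22 after the correction. Up to 3 counts can hide behind a count of 0, or 0.655 CPM in the shallowest mutant library. Its relative Ppargc1a, named after its values were seen, overlapped between the groups, at 3.03, 8.58 and 12.9 CPM in control and 25.3, 8.80 and 8.77 CPM in mutant samples.

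Markers of mitochondria-rich or contaminating cells were measured beside the 7 genes. Of the 12 skeletal muscle markers, edgeR called 0 (0 at an unadjusted p under 0.05 and 0 in DESeq2), beside 3.72% of all genes higher and 3.06% lower. The 12 markers summed to 10.1, 3419 and 34.9 CPM in control and 7935, 187 and 1236 CPM in mutant samples. They were thus high in control sample 2 and in mutant samples 1 and 3. In control sample 2, with 3419 CPM of muscle markers, the 7 genes summed to 2030 CPM. In mutant sample 2, with 187 CPM of muscle markers, they summed to 12920 CPM. Across the other samples, the 7 genes summed to 1788 CPM in control sample 1, 1836 in control sample 3, 24170 in mutant sample 1 and 19860 in mutant sample 3, so mutant sample 1 led on both measures.

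The 5 erythroid markers that passed the filter summed to 823, 822 and 380 CPM in control and 1289, 926 and 2559 CPM in mutant samples, with no overlap. Beside 3.72% of all genes higher and 3.06% lower, 0 of the 5 were called higher (2 at an unadjusted p under 0.05, 2 in DESeq2) and 1 lower (Hba-a1, log2 change -2.04, SE 0.42, edgeR adjusted p = 0.0460). Its near-identical copy Hba-a2 had a log2 change of 1.36 (SE 0.51, edgeR adjusted p = 0.178), and the division of reads between the 2 copies is uncertain. The part of the blood, muscle and epithelium markers and of the depth in the result was not tested. The 10 dental epithelium markers summed to 87380, 99470 and 123300 CPM in control and 36320, 36010 and 76120 CPM in mutant samples, so every mutant sample was lower. Among them, edgeR called 1 higher (Odam, log2 change 1.76, SE 0.42, edgeR adjusted p = 0.0466) and 0 lower, beside 3.72 and 3.06% of all genes. At an unadjusted p under 0.05, 2 were higher and 0 lower. DESeq2 called 2 higher and 2 lower, beside 7.01 and 3.16% of all genes. edgeR called 0 of the mesenchyme, odontoblast, macrophage, endothelial and glial markers (0 at an unadjusted p under 0.05 and 0 in DESeq2), beside the shares of all genes given for each method.

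Among 9692 genes outside the mitochondrial genome with a mean of at least 10 CPM, those whose log2(CPM + 1) over the 6 samples was most like the mean of the 7 genes were Rpl27a-ps1 (Pearson's r = 0.9989), Gm26549 (0.9971), Gm17709 (0.9968), Gm13339 (0.9965) and Gm8253 (0.9964). The 6 points form 2 groups that also differ in depth, so these values describe mostly the gap between the genotypes. Rpl27a-ps1, Gm17709 and Gm8253 are annotated as processed pseudogenes and Gm13339 is the partial copy of mt-Nd2. The mean of each of these genes, Gm26549 included, was 0.409 CPM or less in control samples and 21.8 to 104 CPM in mutant samples. Each thus reached the mean of 10 CPM only through mutant samples. A gene with such levels gives a high r with any genes that are higher in every mutant sample. Whether these genes share more with the 7 than this difference was not tested. Over the same 6 samples, pairs of the 7 genes had r from 0.861 (mt-Nd3 and mt-Nd5) to 0.997 (mt-Nd2 and mt-Nd4), over the same 2 groups.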

How the data were processed

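Bulk RNA sequencing of incisors from 3 control and 3 mutant mice was used, grouped by the labels. The authors sequenced single reads of 75 bases, and trimmed and aligned them with Partek Flow on the mm10 (GRCm38) genome. The values the authors deposited are estimated counts, not normalized and partly fractional. The submitters' processing notes name TopHat2 2.0.8. The counting model, library kit and annotation are not given in the sources used here. The deposited comparison table (p-values, adjusted p-values, ratios and fold changes with group means) was not used.

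Counts were rounded and compared over 15826 genes with edgeR 4.0.16 in R 4.3.3 (upper-quartile scaling, minimum count 10 and total 15, genotype as the only term, two-sided quasi-likelihood test, Benjamini-Hochberg adjustment at 0.05). DESeq2 1.42.0, other scalings and filters, a replicate block, fits without each sample, thinning of control counts, and a length and GC correction were alternatives. The methods were tested on simulated data. No source ties samples to litters, and p-values weigh the difference between the groups against the spread between these samples. The labels name control and mutant libraries in separate series, in which some index numbers recur. Whether both groups were prepared and sequenced together is not given. A difference between such sets, like the difference in depth, could not be told apart from genotype. Depth limits mutant libraries most: 3 counts are 0.655 CPM in mutant sample 1 and 0.0825 CPM in control sample 2, for counting error only.

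Positions, lengths and sequences came from GENCODE M21 on GRCm38 (18637 symbols matched directly, 221 by synonym, 202 not). Nuclear copies were annotated transcripts matching a member over at least 75 bases at 95% identity or more (BLAST 2.17.0). Sequence outside annotated transcripts was not searched. The members and gene lists were chosen with earlier results of these data known. Named genes were the 7 members, the other mitochondrial protein genes set beside them, Fgfr1, the nuclear copies, up to 3 genes called in each direction per list by smallest p (else up to 2 at an unadjusted p under 0.05), and the 5 genes most like the members. Genes named outside this rule are marked as such.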

Additional observations from a re-analysis of the deposited data

Results flagged for a closer look

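The table held 4 of the 22 mitochondrial tRNA genes, outside every comparison above, and these had counts in mutant samples and 0 in every control sample. mt-Ts1 had 49 counts in mutant sample 1 and 7 in mutant sample 3. mt-Tq had 16 and mt-Tv 12 counts in mutant sample 1 alone. mt-Tc had 15 counts in mutant sample 2 and 16 in mutant sample 3. The deposited table held no gene with a highest count below 10, so a gene with 0 in every control was there only through mutant samples. The absence from control samples is therefore no evidence of a difference. None of the 4 genes passed the filter on low counts used here, so no test was made.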

How the results depend on the processing

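Under 16 alternatives, the 112 values of single members were all positive, and 105 lay within 1 SD of the values reported; for every member the lowest value came from the length and GC correction. That correction moved the median of the 7 genes to 1.22 and left 0 of 7 called, 1 nuclear subunit, 1 assembly factor and 0 genes of mitochondrial DNA and RNA handling (maintenance, transcription and processing together, 2 as reported). Without 1 sample, the median ran from 3.21 to 3.59, members called from 3 (without control sample 3) to 7, nuclear subunits from 0 to 6, assembly factors from 0 to 2, and DNA and RNA handling genes from 0 to 1 higher and 0 lower. Calls over all genes ran from 74 to 471 higher in these fits. Nuclear subunits called were 4 with no filter, 10 when a mean count of 50 was required and 10 with control counts thinned. Assembly factors were 4 in DESeq2 and 1 with no filter. DNA and RNA handling genes were 1 with total counts only, 0 with no filter, 1 when a mean count of 50 was required, 1 with thinned controls, and 2 higher and 1 lower in DESeq2. Scaling by total counts moved the median of all genes from -0.04 to -0.30 and the calls over all genes from 589 higher and 485 lower to 466 and 671; without the filter they were 210 and 19. The replicate numbers did not pair the samples (correlations of same-numbered deviations 0.0742, 0.0228 and 0.0883). With the replicate block, 7 members, 20 nuclear subunits, 2 assembly factors and 1 DNA and RNA handling gene were called. Adding the nuclear copies (to fits, ratios and levels per kilobase) and the shortened length were chosen after seeing the data; the former moved the control mt-Nd4l to mt-Nd4 ratio to 12.1%. Taken of the 13 mitochondrial protein genes, the members' mean share was 28.4% in control and 30.7% in mutant samples.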
